A study of Mus musculus with 3 samples.

Results

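Acini and ducts form the exocrine pancreas, and 10 of their marker genes were examined for histone 3 lysine 4 monomethylation (H3K4me1) in cultured islets that had been given the cytokines IFNγ, Il-1β and TNFα. They comprised the acinar transcription factor genes Ptf1a, Rbpjl and Bhlha15, the acinar enzyme genes Cpa1, Cel, Cela1, Pnlip and Ctrb1, and the duct genes Krt19 and Cftr. These 10 were chosen by name among 22350 protein-coding genes annotated on chromosomes 1 to 19 and X of mm9 in GENCODE M1. An enriched region was counted for a gene if any of its bases overlapped the gene or lay within 20 kb of any annotated transcriptional start site (TSS) of that gene. The sequence searched in this way is called the search window of the gene. Of the 65709 regions in the list, 20 (0.0304%) met this rule at 9 of the 10 genes, and none was counted for more than 1 of them.

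The series holds 3 samples, of which 1 H3K4me1 library of cytokine treated islets is described here, while the RNA-seq samples were not analysed here. Islets were isolated from CD1 mice labelled as 8 to 12 weeks old (ICR mice of 8 to 10 weeks in the paper's methods), with collagenase digestion and hand-picking, and males and females were combined. They were cultured for 4 days in RPMI with IFNγ at 1.6 ng/ml, Il-1β at 0.25 ng/ml and TNFα at 0.16 ng/ml. DNA of 4 ChIP experiments was pooled before sequencing, so there is 1 library with no replicate, and every value below is a description without a test. The list gives positions on a grid of 200 bp and no read count or height, so the depth is unknown, and a strong mark in few cells and a weak mark in most cells cannot be told apart. H3K4me1 regions of untreated islets were not analysed here, so nothing below is a change on treatment.

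Acinar cells make digestive enzymes and their inactive precursors, store them in granules and release them into ducts, whose cells add bicarbonate-rich fluid and carry the juice to the gut. Ptf1a, Rbpjl and Bhlha15 (also called Mist1) encode transcription factors of acinar cells. Ptf1a and Rbpjl are subunits of the trimeric PTF1 complex, which binds an E-box together with a second short element upstream of enzyme genes. Islets lie within this exocrine tissue and are separated from it by digestion and picking. H3K4me1 is found on nucleosomes at active and poised enhancers and on those that flank active promoters.

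At least 1 region met the rule at 9 of 10 genes, against 76.4% of all protein-coding genes. Pnlip was the exception. With a search distance of 10 kb the count was 6 of 10, against 72.4%, and with 5 kb it was 5 of 10, against 69.4%, so that the order of the exocrine genes and the background turned with the distance. A region covered a TSS of 3 genes, namely Bhlha15, Krt19 and Cftr, against 39.1% of all protein-coding genes. No further gene was added by counting regions within 2 kb of a TSS, which 62.0% of protein-coding genes had. A region overlapped the body of 4 genes (the same 3 and Cela1), against 64.5%. The median distance from the nearest TSS of a gene to the nearest region was 8384.5 bp for the 10 genes and 563 bp for all protein-coding genes. The median number of regions was 2 for both. Summed over their lengths, regions covered 8.27% of the search windows of the 10 genes and 9.75% of those of all protein-coding genes. Krt19 held 45.8% of the covered length, and the share was 4.89% without it, a value computed after the data were seen. With a search distance of 50 kb, the 10 genes had the larger share, at 12.6% against 9.38%.

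**Figure D1:**
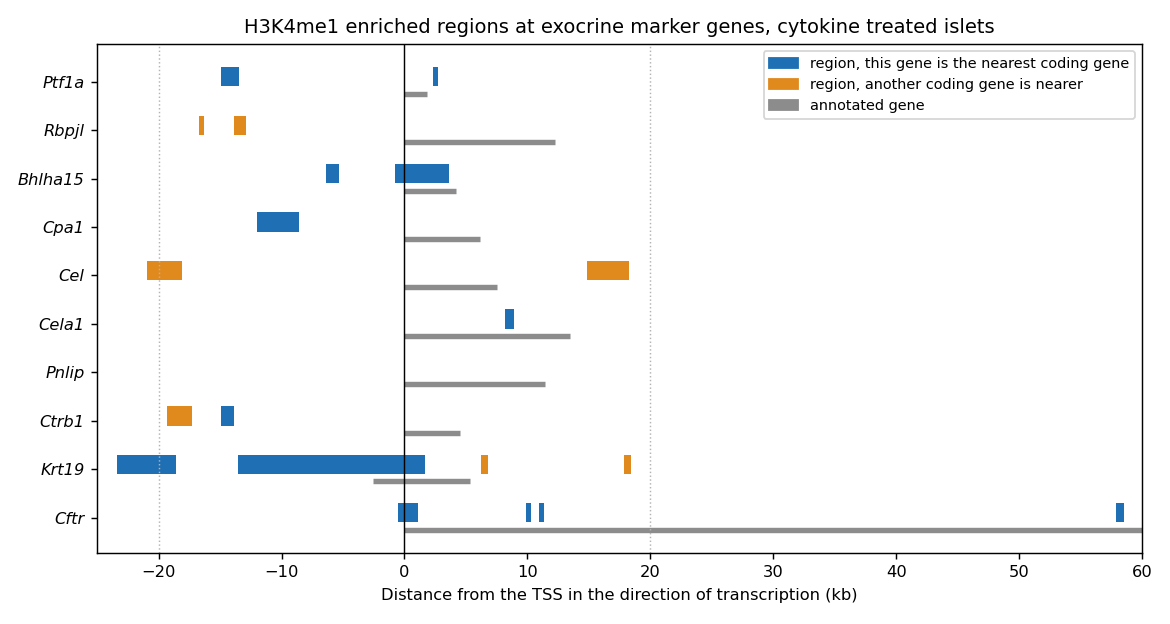
Each row is a gene, the horizontal axis is the distance in kb from the most 5′ TSS of its protein-coding transcripts in the direction of transcription, and dotted lines mark 20 kb on each side. Bars are enriched regions, in blue where the gene is the nearest protein-coding gene and in orange where another is nearer; the grey line is the annotated gene, and that of Cftr runs on past the right edge. Regions cross the TSS line in the rows of Bhlha15, Krt19 and Cftr.

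Among the duct genes, both had a region over the start site, but they differed in how much of the surrounding sequence was marked. Krt19, the gene of keratin 19, an intermediate filament protein of duct epithelium, is annotated on the minus strand of chromosome 11, between 100002124 and 100009979 (ENSMUSG00000020911.8). Its search window held 4 regions that covered 20.4 kb of it, or 45.3%, and 2.39% of protein-coding genes had a larger share covered. The main region spanned 15.2 kb, from 100005801 to 100021000. It contained the TSS of the protein-coding transcript at 100007434, reached 13566 bp upstream and 1633 bp downstream of it, and overlapped coding sequence, UTR and intron of Krt19 and no other annotated gene. Of all regions in the list, 0.712% (468) were at least this wide. Another region of 4.8 kb, from 100026001 to 100030800, began 18.6 kb upstream of that TSS and also had Krt19 as its nearest gene. The other 2 regions were 600 bp wide, lay 6.23 and 17.8 kb downstream of it, and had the neighbouring keratin gene Krt15 as their nearest gene.

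Cftr encodes the chloride and bicarbonate channel of the apical membrane of duct cells, and is annotated on the plus strand of chromosome 6, between 18120687 and 18272768 (ENSMUSG00000041301.8). It had 4 regions, all overlapping the gene. The first, from 18120201 to 18121800, covered the first TSS, with 486 bp upstream and 1113 bp downstream, and it overlapped UTR, coding sequence and intron. The others were intronic and 400, 400 and 600 bp wide, beginning 9.91, 10.9 and 57.9 kb downstream of the first TSS. The 4 regions covered 3.0 kb, or 1.74%, of its window of 172082 bp, where those of Krt19 covered 20.4 kb of 44967 bp, and 69.9% of protein-coding genes had a larger share covered.

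The 3 acinar transcription factor genes had 2 regions each, with different positions. Bhlha15, which encodes a basic helix-loop-helix factor of secretory cells, is annotated on the plus strand of chromosome 5, between 144951155 and 144955310 (ENSMUSG00000052271.7). A region of 4.4 kb, from 144950401 to 144954800, reached 754 bp upstream of its only TSS and 3645 bp downstream, and so covered most of the gene. Its other region, of 1.0 kb, ended 5.36 kb upstream of the TSS, over coding sequence, UTR and intron of Lmtk2. Bhlha15 was the nearest gene of both, and they covered 13.5% of its window.

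Ptf1a, annotated on the plus strand of chromosome 2 between 19367290 and 19369128 (ENSMUSG00000026735.2), had no region over the gene. A region of 400 bp, from 19369601 to 19370000, began 2311 bp downstream of its TSS and just past the 3′ end of the gene. The other region, of 1.4 kb, ended 13.5 kb upstream and covered the TSS of Gm13344, a non-coding transcript. Ptf1a was the nearest protein-coding gene of both regions, but a non-coding gene (Gm13336 and Gm13344) had a nearer TSS in each case. Of all protein-coding genes, 62.7% had a region closer to a TSS than Ptf1a did.

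Rbpjl, the gene of the RBPJ-like subunit of PTF1, is annotated on the plus strand of chromosome 2, between 164228641 and 164240948 (ENSMUSG00000017007.3). Its 2 regions were 400 bp and 1.0 kb wide, and the nearer one ended 12.8 kb upstream of a TSS of Rbpjl. Both overlapped Slpi, a secreted protease inhibitor gene, which was the nearest gene of both, and the nearer one covered a TSS of Slpi. No region of the list had a TSS of Rbpjl as the closest within 100 kb.

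For the 5 acinar enzyme genes, no region covered a TSS, and the nearest region lay 8.15 to 24.5 kb from one. Cpa1, the gene of carboxypeptidase A1, is annotated on the plus strand of chromosome 6, between 30589218 and 30595363 (ENSMUSG00000054446.8). Its 1 region, of 3.4 kb from 30577201 to 30580600, ended 8.62 kb upstream of the TSS, over coding sequence and intron of the neighbouring carboxypeptidase gene Cpa5, with Cpa1 as the nearest gene by TSS. Cela1, an elastase gene annotated on the minus strand of chromosome 15 between 100504856 and 100518351 (ENSMUSG00000023031.7), had 1 region of 800 bp, from 100509401 to 100510200. That region lay within an intron, 8.15 kb downstream of the TSS, and was the only one to overlap 1 of these 5 enzyme genes.

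Ctrb1 encodes the protease precursor chymotrypsinogen B1 and is annotated on the minus strand of chromosome 8, between 114210410 and 114214910 (ENSMUSG00000031957.5). It had 2 regions outside annotated genes, of 1.0 and 2.0 kb, which began 13.9 and 17.3 kb upstream of the TSS. Ctrb1 was the nearest gene of the first, and Bcar1 of the second. Cel, which encodes bile salt-stimulated lipase, is annotated on the minus strand of chromosome 2, between 28411315 and 28418923 (ENSMUSG00000026818.5). Its 2 regions, of 3.4 and 2.8 kb, lay on either side of the gene, 14.9 and 18.1 kb from a TSS of Cel. They covered TSS of Ralgds and of Gtf3c5, which were their nearest genes, so that the 13.3% of the Cel window that was covered lay at the start sites of its neighbours.

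Pnlip, the gene of pancreatic triglyceride lipase, is annotated on the plus strand of chromosome 19, between 58744855 and 58756276 (ENSMUSG00000046008.7). No region met the rule. The nearest was a region of 400 bp, from 58720001 to 58720400, which ended 24.5 kb from the TSS, and 77.1% of protein-coding genes had a region closer to a TSS. At the limit of the rule, the farthest regions inside 20 kb were those 18.1 kb from Cel and 17.3 kb from Ctrb1, and the nearest outside it were regions 20.4 kb from TSS of Cpa1 and of Cela1.

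By the nearest protein-coding TSS, 13 of the 20 regions belonged to the gene whose window they lay in and 7 to a neighbour. Within 100 kb, 8 of the 10 genes (all but Rbpjl and Cel) were the nearest protein-coding gene of a region, against 69.5% of protein-coding genes. Counting TSS of every gene type, 11 of the 20 regions belonged to the exocrine gene, and 4 of the 20 covered a TSS of another gene. When regions up to 100 kb away were assigned to the gene with the nearest TSS, 7 of the 10 genes (all but Ptf1a, Rbpjl and Cel) received at least 1, against 66.7% of protein-coding genes. The 20 regions had a median width of 1000 bp, with a range from 400 to 15200 bp, and the median over the whole list was 1200 bp.

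Start sites with and without a region are shown by the 100 bases of mm9 just upstream of the TSS, on the strand of the gene. Capitals mark 4 motifs searched on both strands, which are CACCTG (the E-box form to which PTF1 binds), TGGGAA (the core bound by RBPJ and RBPJL), the TATA box in the form TATAAA, and the GC box in the form GGGCGG. The sequences of Bhlha15 (chr5:144951055-144951154, plus strand), Krt19 (chr11:100007435-100007534, minus strand) and Cftr (chr6:18120587-18120686, plus strand) lay inside a region. In Bhlha15 an E-box and a GC box, each read on the other strand, adjoin each other.
Bhlha15: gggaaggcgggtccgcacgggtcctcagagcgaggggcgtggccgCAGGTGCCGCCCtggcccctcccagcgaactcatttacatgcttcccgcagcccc
Krt19: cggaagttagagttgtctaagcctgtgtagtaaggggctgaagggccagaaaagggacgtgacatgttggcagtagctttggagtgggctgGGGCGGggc
Cftr: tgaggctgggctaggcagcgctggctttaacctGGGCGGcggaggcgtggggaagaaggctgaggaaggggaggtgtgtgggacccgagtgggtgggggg

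The sequences of Rbpjl (chr2:164228594-164228693, plus strand), Cpa1 (chr6:30589118-30589217, plus strand), Cela1 (chr15:100518352-100518451, minus strand) and Pnlip (chr19:58744755-58744854, plus strand) lay outside any region. Chosen after the matches were seen, they show the E-box of an acinar factor gene, the RBPJ core of an enzyme gene and the TATA boxes of 2 enzyme genes. The 100 bases of Ptf1a, Cel and Ctrb1, which are not printed, held none of the 4 motifs.
Rbpjl: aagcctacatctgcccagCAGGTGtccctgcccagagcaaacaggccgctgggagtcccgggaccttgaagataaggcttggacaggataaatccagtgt
Cpa1: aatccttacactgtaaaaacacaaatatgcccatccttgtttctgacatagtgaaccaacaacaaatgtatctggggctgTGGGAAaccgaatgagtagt
Cela1: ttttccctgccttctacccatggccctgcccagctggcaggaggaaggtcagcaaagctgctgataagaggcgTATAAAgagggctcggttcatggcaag
Pnlip: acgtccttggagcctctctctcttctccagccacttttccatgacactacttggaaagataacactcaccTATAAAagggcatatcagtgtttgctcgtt

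In the 300 bp from 250 bp upstream of the TSS to 50 bp downstream, TGGGAA was found for 7 of the 10 genes, against 24.2% of 22338 protein-coding genes. The 3 without it were Bhlha15, Cela1 and Cftr. CACCTG was found for 4 genes (Rbpjl, Bhlha15, Cel and Cela1), against 19.8%, and Rbpjl and Cel held both elements of PTF1. TATAAA was found for Cela1 and Pnlip, against 13.4%. GGGCGG was found for Bhlha15, Krt19 and Cftr, against 44.0%, and these were also the 3 genes with a region over a TSS. Whether this motif and a covered TSS go together over all protein-coding genes was not tested. A match of letters is a description and not a site of binding.

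CpG content around the TSS, which the rule did not use, also varied among the genes. In 1 kb centred on the TSS, the ratio of observed to expected CpG was 0.773 for Cftr and 0.73 for Ptf1a, and between 0.0888 (Ctrb1) and 0.433 (Pnlip) for the other 8 genes. Of protein-coding genes with a ratio of at least 0.6, 54.4% had a region over a TSS and 90.8% had one within 2 kb. Of those under 0.6, 26.1% and 37.5% did. Cftr was among the 54.4% of CpG-rich genes with a region over a TSS. Ptf1a was not among the 90.8%, as its nearest region was 2311 bp away. Bhlha15 and Krt19 had a covered TSS at ratios of 0.36 and 0.42, which 26.1% of genes in their class had, and the 5 enzyme genes and Rbpjl were in the larger part without one.

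**Figure D2:**
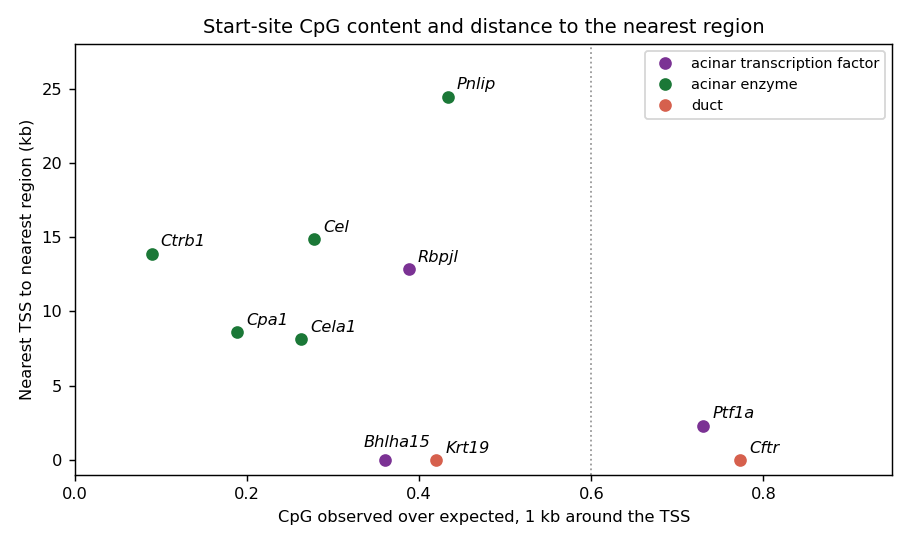
Each point is 1 of the 10 genes, with the observed over expected CpG ratio in the 1 kb around the TSS on the horizontal axis and the distance in kb from the nearest TSS to the nearest region on the vertical axis. The dotted line is at a ratio of 0.6; Bhlha15, Krt19 and Cftr lie at 0 kb, and the 5 enzyme genes lie at 8.15 to 24.5 kb.

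The regions themselves were searched in the same way. Of the 20 regions near the exocrine genes, 3 covered a TSS of the exocrine gene and 4 a TSS of another gene. In the central 300 bp of each region, CACCTG was found in 10 of the 20, of which 5 were among these 7, against 22.3% of the 65647 regions of the list with complete sequence, and TGGGAA in 6, against 26.2%. TATAAA was found in 2, against 17.6%, and GGGCGG in 1, against 8.99%, which was a region of Cel and none of the 3 over a start site of an exocrine gene. A pair of regions with CACCTG and no other gene at their position is shown, both chosen after the matches were seen. One is the intronic region of Cela1 (chr15:100509651-100509950, minus strand), with 2 matches of CACCTG on the other strand. The other is the region of Ctrb1 nearest to its TSS (chr8:114229151-114229450, minus strand), with 2 matches of CACCTG and 1 of TGGGAA on the other strand. Capitals mark the matches of these 2 motifs.
Cela1 intron: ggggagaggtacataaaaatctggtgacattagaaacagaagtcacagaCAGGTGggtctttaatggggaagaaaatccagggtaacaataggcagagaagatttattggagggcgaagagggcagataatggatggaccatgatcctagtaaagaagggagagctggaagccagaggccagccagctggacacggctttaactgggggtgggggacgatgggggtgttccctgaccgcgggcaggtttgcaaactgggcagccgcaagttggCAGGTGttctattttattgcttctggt
Ctrb1 upstream: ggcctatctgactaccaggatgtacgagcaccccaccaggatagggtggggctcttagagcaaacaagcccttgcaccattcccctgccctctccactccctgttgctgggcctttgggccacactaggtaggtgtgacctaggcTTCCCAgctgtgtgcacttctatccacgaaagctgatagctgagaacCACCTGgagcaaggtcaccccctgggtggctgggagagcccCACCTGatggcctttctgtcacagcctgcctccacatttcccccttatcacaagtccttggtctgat

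The occurrence of 32 bp words around the genes was compared with the whole genome on both strands; the read length of the library is not given in the sources used here. Within 20 kb of the TSS, 77.8% (Cftr) to 98.8% (Ptf1a) of 81 words per gene occurred once in the genome. At Pnlip, the gene with no region, 91.4% did, and 97.6% of the 41 words within 2 kb. The part of repeated sequence in the presence or absence of regions was not tested.

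A wider list of acinar genes had a median of 1 region per gene. Of 25 such genes, 13 had a region by the rule and 3 had one over a TSS, where the background is 76.4% and 39.1%. The median share of the search window covered was 0.641%, against 6.5% for all protein-coding genes and 6% for the 10 exocrine genes. Leaving out the factor genes Nr5a2 and Gata4 and the annotated pseudogene Amy2b, 11 of the other 22 had a region by the rule, and the median share covered was 0.32%. The amylase gene Amy1 had its nearest region 424 kb from a TSS, the trypsinogen gene Prss2 at 82.4 kb, and the lipase-related genes Pnliprp1 and Pnliprp2, which are neighbours of Pnlip, at 83.0 and 70.0 kb. Regenerating protein gene Reg1 was 446 kb from the nearest region. Of words near these 5 genes within 20 kb, 80.2% to 97.5% occurred once, but 46.9% did for the trypsinogen gene Prss1. The acinar factor genes Nr5a2 and Gata4 had 6 and 5 regions in windows of 136844 and 98086 bp, of which 5.7% and 6.89% was covered. Nr5a2 had one 407 bp from a TSS and Gata4 one over a TSS. Clps, the gene of colipase, had the largest covered share of the list at 14.5%.

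A wider list of 15 duct genes had a median of 3 regions per gene. All 15 had a region by the rule, 11 had one over a TSS and 14 had one within 2 kb of a TSS, against 76.4%, 39.1% and 62.0% of all protein-coding genes. The exception was Aqp1, a water channel gene, 12.0 kb from its nearest region. The median share of the window covered was 10.4%, with 63.1% for Krt7 and 59.1% for Krt8, both keratin genes, and 2% for Aqp1. Sox9, a transcription factor gene of duct cells, had a region over a TSS, with 10.4% of its window covered. Several genes of this list, such as Krt8, Krt18 and Epcam, are also known from islet endocrine cells, so the list does not mark ducts alone.

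**Figure D3:**
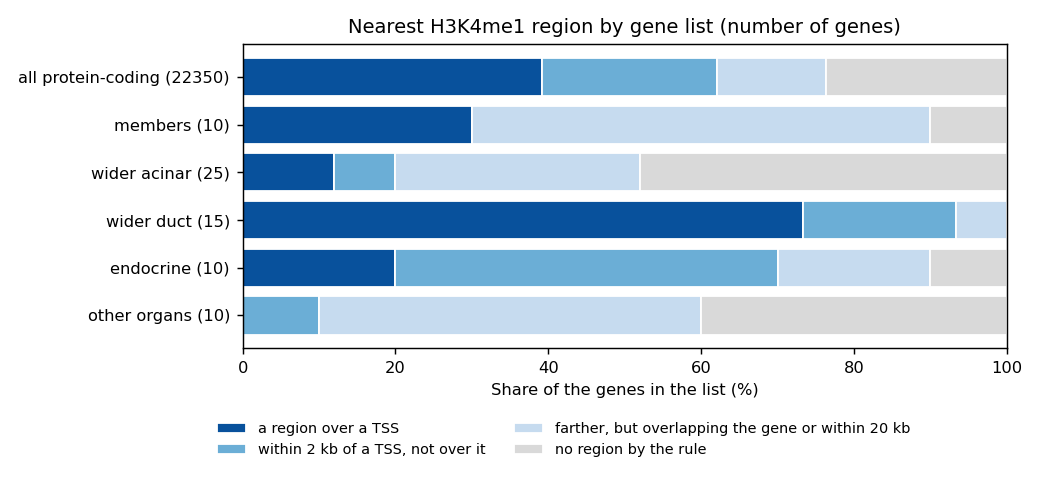
Stacked bars give the share of the genes of each list, in percent, by the position of the nearest region: over a TSS, within 2 kb of one, farther but within the rule, or none by the rule. Of the 10 exocrine genes (members), 3 had a covered TSS and 6 had a region that was farther than 2 kb; 11 of the 15 wider duct genes and 3 of the 25 wider acinar genes had a covered TSS.

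The labelled tissue was checked with 10 islet endocrine genes. Of these, 9 had a region by the rule, 7 had one within 2 kb of a TSS and 2 had one over a TSS, against 76.4%, 62.0% and 39.1% of all protein-coding genes. The median share of the window covered was 26.9%, against 6.5%. Pdx1 and Pax6, transcription factor genes of islet cells, reached 48% and 51.9%, which is close to the 45.3% of Krt19 and above the 0% to 13.5% of the 8 acinar genes. The median was 37.3% for the 6 transcription factor genes and 4.47% for the 4 hormone genes. It was 7.5% for the 5 acinar enzyme genes and 0.32% for the 22 of the wider acinar list, so that by this median the hormone genes lay between these acinar lists. By start sites they lay above both. Of the 4 hormone genes, 1 had a region over a TSS and 2 had one within 2 kb. The counts were 0 and 0 for the 5 enzyme genes, and 2 and 3 for the 22. Ins1 had 17.5% covered, whereas Ins2 at 6.94%, Sst at 2% and Gcg at 0% lay within the range of the acinar genes. Gcg, the glucagon gene, had no region by the rule, with the nearest 21.9 kb from a TSS, and Sst, the somatostatin gene, had 1 region 7.27 kb away. The position of Gcg was thus like that of Pnlip, so that a gene of the islet's own cells can also lack a listed region.

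For 10 genes that are typical of liver, muscle, retina, testis, intestine or epidermis, 6 had a region by the rule, 1 had one within 2 kb of a TSS and 0 had one over a TSS, against 76.4%, 62.0% and 39.1% of all protein-coding genes, with a median of 5% of the window covered. Among the 5 acinar enzyme genes, 4 had a region by the rule and 0 had one within 2 kb of a TSS, against the same 76.4% and 62.0%, with a median of 7.5% of the window covered. The 22 genes of the wider acinar list, with 11 by the rule and a median of 0.32%, lay below the genes of other organs on these measures. At start sites they did not: 2 of the 22 had a region over a TSS and 3 had one within 2 kb. The genes of other organs had 0 and 1 of 10, and the shares of all protein-coding genes were 39.1% and 62.0%. Genes of other cell types that can accompany islets were counted as well. By the rule, 4 of 6 leukocyte, 3 of 4 endothelial and 3 of 4 stromal genes had a region, and 1, 3 and 2 of them over a TSS, against 76.4% and 39.1% of all protein-coding genes. The share of the window covered ran from 0% (Cd3e, Itgam, Cdh5 and Pdgfrb) to 31.6% (Cd68) over these 14 genes. Cd68 was the only leukocyte gene with a covered TSS, and each region in its window had a neighbour as its nearest gene. The part of exocrine, vascular or immune cells in any of these regions was not tested.

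**Figure D4:**
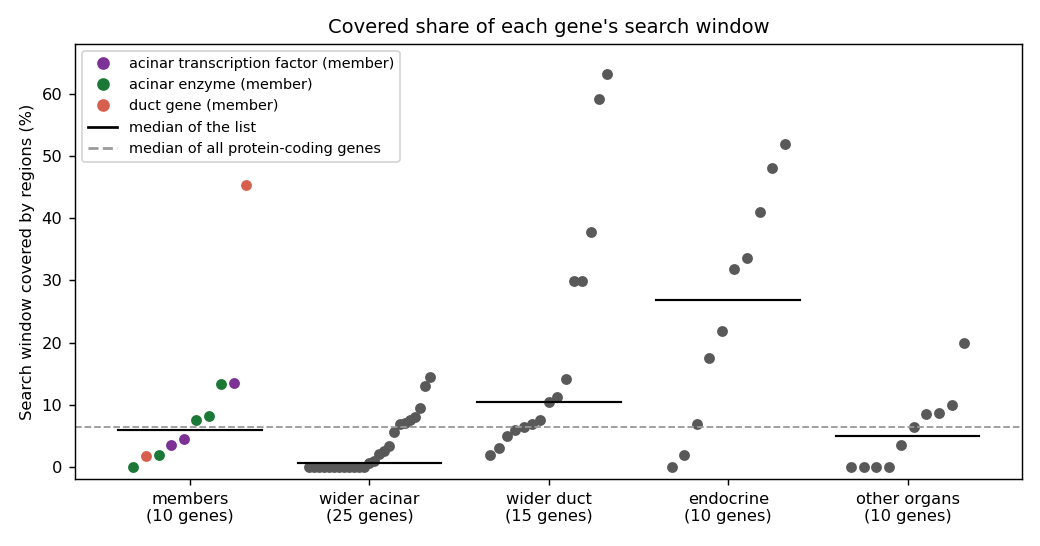
Each point is a gene, and the vertical axis is the share of its search window covered by regions, in percent. Black lines are list medians and the dashed line is the 6.5% median of all protein-coding genes; of the 10 exocrine genes (members, in colour), Krt19 at 45.3% stands above the rest, which lie between 0% and 13.5%.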

How the data were processed

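The authors pooled the DNA of 4 ChIP experiments into 1 H3K4me1 library, mapped its reads to mm9 with bowtie2 (2.2.1 in the submitters' processing notes) and called enriched regions with ChromHMM, whose version and settings are not given in the sources used here. The deposited values are the start and end of each region in bp, without a count, score or p-value, so depth and its precision are unknown. Whether loci of low FPKM had been removed from this list is not stated. No region was filtered or merged, and starts were raised by 1 so that positions count from 1. Genes and TSS were taken from GENCODE M1 (NCBIM37, the same build), and sequences from that genome. Motif and CpG windows used the most 5′ TSS of protein-coding transcripts. All 84 symbols searched were found, although Amy2b is annotated as a pseudogene. Shares of all protein-coding genes are the background. The genes and lists were chosen with earlier results of these data known. Every exocrine gene is named, and genes of the other lists mainly where they had the most regions or none. Values of some single genes of the wider lists are not reported here. Measures were checked on simulated regions. Python 3.11.15 and numpy 2.4.6 were used.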

Additional observations from a re-analysis of the deposited data

How the results depend on the processing

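No paired analysis was possible because the data are 1 library, which also has no replicate to leave out. Of 36 values of 5 measures under the alternatives, 29 stayed within 1.5 times the value above. The number of exocrine genes with a region by the rule was 5 with a search distance of 5 kb (69.4% of protein-coding genes), when Rbpjl, Cpa1, Cel, Ctrb1 and Pnlip had none. The median number of regions was 0.5 at 5 kb, 1 at 10 kb, 4.5 at 50 kb and 1 with regions of at least 1000 bp (1, 2, 5 and 2 for all protein-coding genes). At 50 kb all 10 genes had a region (82.3% of protein-coding genes), and 12.6% of their windows was covered, against 9.38% for all protein-coding genes, whereas at 20 kb their share was the lower one. Leaving out Krt19, an alternative chosen after seeing the data, the share was 4.89% (20 kb). The cause was not tested. The number with a region over a TSS was 3 under all 6 alternatives tried for it, where the share of protein-coding genes ran from 35.7% to 62.0%. With regions of at least 1000 bp, Cela1 also had none. The absence of a region can reflect depth or the calling threshold, which the list does not give.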
